A study of Mus musculus with 16 samples.

Results

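The 78 genes described here encode the proteins of the mitochondrial ribosome that carry the symbols Mrpl (large subunit, 49 genes) or Mrps (small subunit, 29 genes). They were taken from a table of 55385 mouse genes as every protein-coding row whose symbol is Mrpl or Mrps followed by a number. The rule uses symbols and no measured value, but this family was singled out with earlier results of these data known. RNA was sequenced in bulk from retinal cells of Iba1-EGFP mice that were sorted for the green reporter of Iba1, a calcium-binding protein of microglia and other macrophages. The 16 libraries form 4 groups of 4. The day 0 group was untreated and 15 weeks old, the day 2 and day 4 groups after optic nerve crush were 13 weeks old, and the day 7 group was 16 weeks old, so age cannot be told apart from injury except between days 2 and 4. Every mouse carried the reporter, and the labels give no sham surgery and do not say whether animals were pooled. The labels call the cells microglia, and the microglial markers P2ry12, Cx3cr1, Tmem119 and Aif1 were present in every library, while Ccr2, a receptor that defines circulating monocytes, reached at most 0.18 FPKM. Other genes of the monocyte list of 8 did not all stay low. Ms4a4c rose at day 4 (change 2.43 ± 0.60, limma adjusted p = 0.0309) and at day 7 (5.24 ± 0.60, adjusted p = 0.00258), and Plac8 rose at day 7 (3.14 ± 0.58, adjusted p = 0.031), both of the 4 tested. Another of these 4, F13a1, went the other way at day 7, with a change of -2.95 that was not called. The summed level of the list was 5.6 to 55.7 FPKM at day 0, 16.8 to 37.6 at day 4 and 54.5 to 121 at day 7. Its part in the results was not tested.

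Mitochondrial ribosomes translate the few proteins encoded by mitochondrial DNA, all of them subunits of the respiratory chain and of ATP synthase. Their RNA comes from mitochondrial DNA, whereas all their proteins are made from nuclear genes in the cytosol and imported. Many of the proteins have bacterial relatives, and others were added in the mitochondrial lineage. Transcription factors such as NRF1, the ETS factor GABP and YY1 are known activators of nuclear genes for mitochondrial proteins. All 37 genes of mitochondrial DNA, including both ribosomal RNAs, were listed at 0 in all 16 libraries, so the products of these ribosomes could not be set beside their proteins.

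Promoter sequence was available for 69 of the 78 genes, in 75 windows from RefSeq (build GRCm38.p6) that run from 250 bases before to 50 after the start of transcription. RefSeq starts can differ from the gene starts of the deposited table. Stretches from 170 bases before to 30 after the start are printed for 5 genes whose RNA rose at day 4, because each holds a letter match for one of the 3 activators. Capitals mark the match, which is GCGCANGCG for NRF1, CCGGAAG for ETS factors and AAGATGGC for YY1, on either strand. Mrpl12, from chr11:120484467-120484666 (plus strand), and Mrpl14, from chr17:45686179-45686378 (plus strand), have NRF1 matches. Mrpl36, from chr13:73330839-73331038 (plus strand), has a YY1 match. Mrps18a, from chr17:46110834-46111033 (plus strand), has an ETS match followed by a YY1 match, and Mrps18c, from chr5:100798589-100798788 (plus strand), has an ETS match.
Mrpl12: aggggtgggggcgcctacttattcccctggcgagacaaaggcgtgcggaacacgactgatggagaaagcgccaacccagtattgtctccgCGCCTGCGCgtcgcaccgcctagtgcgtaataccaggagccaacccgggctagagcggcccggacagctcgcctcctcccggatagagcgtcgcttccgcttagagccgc
Mrpl14: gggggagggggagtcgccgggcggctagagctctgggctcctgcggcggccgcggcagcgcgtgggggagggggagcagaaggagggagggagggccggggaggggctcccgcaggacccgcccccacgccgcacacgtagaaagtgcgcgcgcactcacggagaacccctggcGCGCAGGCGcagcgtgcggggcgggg
Mrpl36: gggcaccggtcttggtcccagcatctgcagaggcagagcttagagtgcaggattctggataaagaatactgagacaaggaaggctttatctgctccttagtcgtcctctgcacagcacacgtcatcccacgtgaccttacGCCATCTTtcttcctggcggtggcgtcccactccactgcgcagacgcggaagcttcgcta
Mrps18a: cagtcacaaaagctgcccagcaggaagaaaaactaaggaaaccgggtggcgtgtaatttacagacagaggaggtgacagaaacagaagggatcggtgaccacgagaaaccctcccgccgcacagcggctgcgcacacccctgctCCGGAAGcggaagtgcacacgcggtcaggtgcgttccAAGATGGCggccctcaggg
Mrps18c: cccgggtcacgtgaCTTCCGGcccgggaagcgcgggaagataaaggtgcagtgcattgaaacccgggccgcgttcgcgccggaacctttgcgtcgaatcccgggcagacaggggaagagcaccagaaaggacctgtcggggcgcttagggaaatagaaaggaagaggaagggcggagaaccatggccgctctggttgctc

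NRF1 matches were found in 21.3% of the windows of mitochondrial ribosomal protein genes, against 6.2% of all 32851 windows and 13.9% of 10749 windows of tested coding genes. ETS matches were found in 34.7% of their windows, against 8.9% of all windows and 18.4% of those of tested coding genes. YY1 matches were found in 16.0%, against 4.6% in tested coding genes and 2.7% in all. The median place of the first letter was 17 bases before the start for ETS, 49 before it for NRF1 and 16 after it for YY1. Of the 69 genes, 44 held at least 1 of the 3 motifs, 10 held 2 or more and 25 held none. Other motifs showed no such surplus over tested coding genes. The E-box (CACGTG) was in 9.3% of the windows against 10%, the GC box (GGGCGG) in 52.0% against 62.0%, the CCAAT box (CCAAT) in 40.0% against 38.3% and the cAMP response element (TGACGTCA) in 2.7% against 3.2%. The motif of estrogen-related receptors (TCAAGGTCA) was in none of the 75 windows and in 0.3% of those of tested coding genes. The mean GC content of the windows was 59.0%, against 60.4% in tested coding genes. These are letter matches, and no binding was measured.

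**Figure D1:**
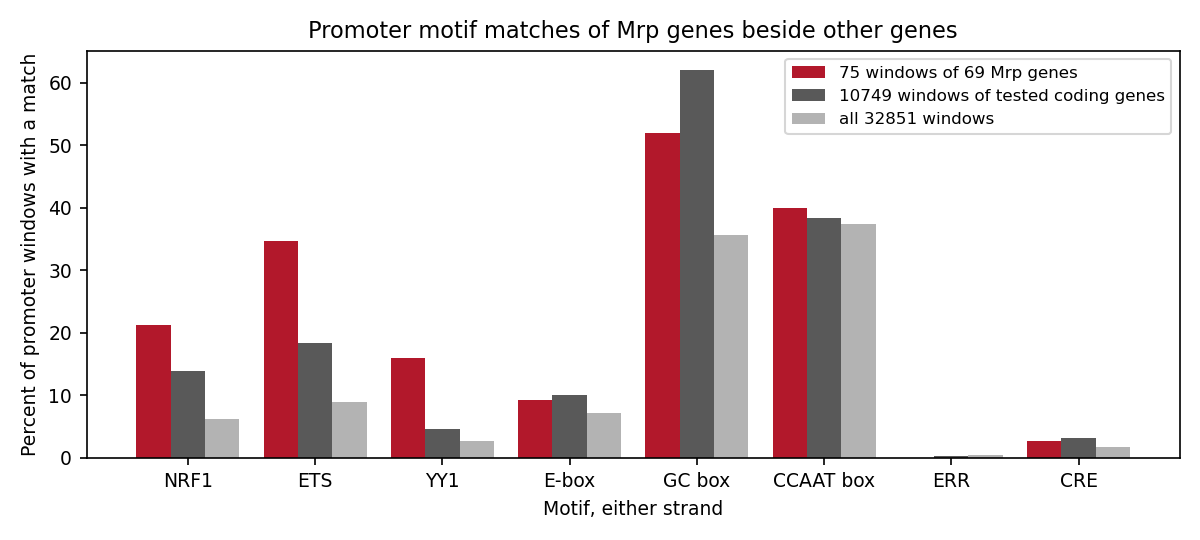
Percent of promoter windows (vertical axis) that hold each motif on either strand (horizontal axis), for 75 windows of 69 Mrp genes (red), 10749 windows of tested coding genes (dark grey) and all 32851 windows (light grey). The red bars stand above both grey bars for NRF1 (21.3%), ETS (34.7%) and YY1 (16.0%), and below the dark grey bar for the GC box (52.0%).

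Another shared feature lay in the genome around these genes. For 26 of the 78 (33.3%) a protein-coding gene on the opposite strand starts within 1000 bases, against 15.2% of 10603 tested coding genes. Mrpl46 and Mrps11 face each other as such a pair, so a large and a small subunit protein share the stretch between their starts. Among the other partners, 3 were picked out here by what is known of them. Mrpl36 faces Ndufs6, a subunit of respiratory complex I, Mrps12 faces Sars2, the mitochondrial seryl-tRNA synthetase, and Mrpl49 faces Fau, whose product includes a protein of the cytosolic ribosome.

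All 78 genes passed the filter for testing, at least 1 FPKM in at least 4 libraries. FPKM are fragments scaled by gene length and by the fragments of the library, so levels can be compared between genes. Over the 16 libraries the mean of a gene ran from 2.47 to 80.7 FPKM, with a median of 15.4. The highest means were those of Mrps21, Mrpl28, Mrpl18 and Mrpl34, and the lowest those of Mrps5, Mrps9, Mrpl19 and Mrps35. At least 1 FPKM was reached in all 16 libraries by 48 genes, and 16 genes were listed at 0 in at least 1 library. These low and intermittent values set wide errors. Mrps2, a small subunit protein with a bacterial relative, had 21.5, 14.2, 0.0529 and 7.97 FPKM in the 4 day 0 libraries, so it spanned from near 0 to its usual level without any injury.

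The summed level of the 78 genes was lowest at day 0 and highest at day 4. It was 1331, 1290, 1170 and 1125 FPKM in the day 0 libraries. It was 1669, 1730, 1582 and 1482 FPKM at day 2, 2398, 2470, 3031 and 2533 FPKM at day 4, and 1578, 1532, 1749 and 2438 FPKM at day 7. In summed FPKM no library after crush overlapped with day 0, and days 2 and 4 did not overlap with each other. Day 7 spanned from the day 2 range into that of day 4. The mean sums were 1229 ± 97.0, 1616 ± 107, 2608 ± 288 and 1824 ± 419 FPKM (SD, n = 4 each), or 1.31, 2.12 and 1.48 times day 0 at days 2, 4 and 7. Their share of all fragments was between 0.222% and 0.265% at day 0, and between 0.481% and 0.621% at day 4. In bulk RNA a change in the number of cells of a type and a change in RNA per cell cannot be told apart.

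The size of this difference depended on the scaling. FPKM scales each library by its number of fragments, and the summed FPKM of all genes still differs between libraries. Median-of-ratios factors, computed here from 7710 genes detected in all libraries, were 1.27 to 1.397 at day 4 and 0.89 to 1.02 at day 0. After division by these factors the mean sums were 1270 ± 172, 1483 ± 161, 1935 ± 186 and 1838 ± 256 FPKM (SD, n = 4 each). The day 4 and day 7 libraries still lay above all day 0 libraries, and day 2 overlapped with day 0. The day 7 mean was 0.70 of the day 4 mean as deposited and 0.95 of it after rescaling, and the libraries of both days overlapped on either scale. As a share of the summed FPKM of all genes, only day 4 (0.447% to 0.531%) lay above all day 0 libraries, and it lay above day 7 too. Day 2 (0.246% to 0.308%) and day 7 (0.198% to 0.348%) overlapped with day 0 by this share. Day 0 replicate 1 had 0.31%, and the other day 0 libraries had at most 0.214%. Day 7 replicate 2 had the lowest share of all 16 libraries.

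**Figure D2:**
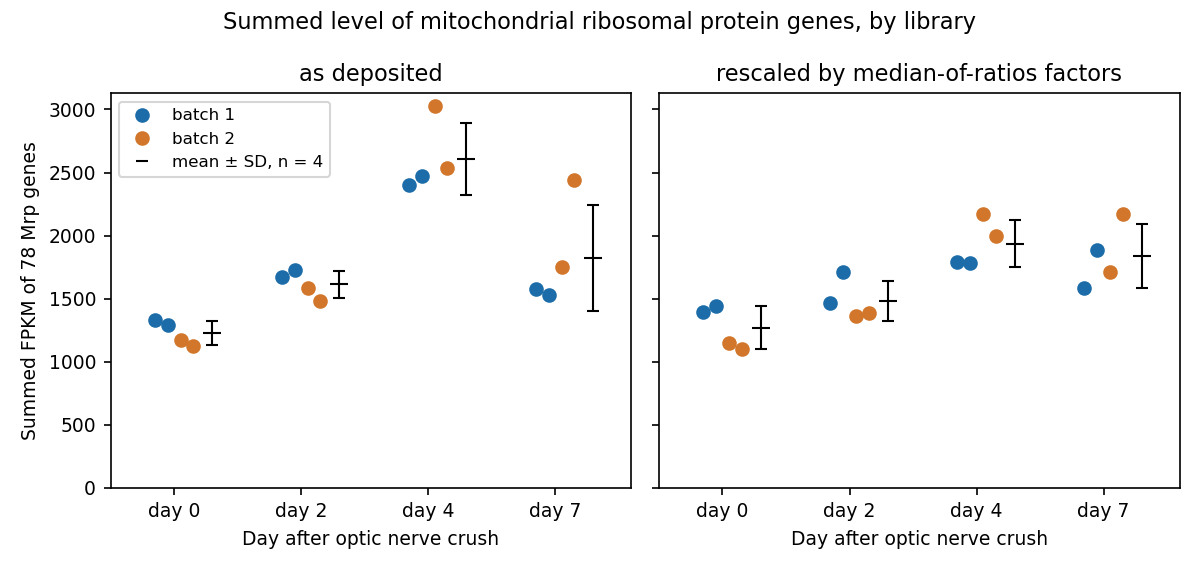
Summed FPKM of the 78 Mrp genes (vertical axis) in each library by day after optic nerve crush (horizontal axis), as deposited (left) and divided by median-of-ratios factors (right). Points are libraries, blue for replicates 1 and 2 (batch 1) and orange for replicates 3 and 4 (batch 2), and bars show the mean ± SD of 4 libraries. The day 4 mean is 2608 FPKM as deposited and 1935 after rescaling, above all day 0 libraries in both panels.

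At day 4 the RNA of 14 of the 78 genes was higher than at day 0 and that of none was lower (limma on log2(FPKM + 1), Benjamini-Hochberg adjusted p under 0.05 over 14795 genes). That is 17.9% of these genes, against 4.62% of all genes called higher and 0.716% called lower in the same comparison. The 4 day 4 libraries lay above all 4 day 0 libraries for 36 of the 78 genes, against 12.6% of all tested genes, and for 43 the unadjusted p was under 0.05 with a higher level, against 15.1%. The median change of the 78 was 1.07 on the log2 scale, and that of all tested genes 0.16. Changes were positive for 70 of the 78. Within batch 1 the median of the 78 was 0.97 and within batch 2 it was 1.30, with 70 positive in each, and no gene had a change that differed between batches after adjustment (lowest adjusted p = 0.37, limma interaction).

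The 14 calls hung on scaling and on single libraries. With median-of-ratios factors the median of all genes moved by -0.32, the median of the 78 was 0.63, 63 of them were positive, and only Mrpl18 kept its call. Measured from the median of all genes, the median of the 78 was 0.91 higher as deposited and 0.80 higher after rescaling. Without day 4 replicate 2, 4 of the 14 were called, without replicate 3, 5 were, and without replicate 1 or 4, 6 were, with 1 further gene called in each of the latter fits. Without any 1 of the day 0 libraries 8 of the 14 were called. Mrpl12, Mrpl18 and Mrps28 kept their calls with any single library left out. Mrps18a lost its call in 1 of the 16 such fits (without day 4 replicate 2), and the others in 3 to 12. Calls among all tested genes also moved in these fits, between 267 and 955.

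RNA of other retinal cells moved with the days. The bipolar cell list (10 of 10 genes tested) had a median change of -1.73 at day 4, and its summed level was 56.5 to 291 FPKM at day 0 and 8.6 to 34.4 at day 4, with up to 7 of its genes listed at 0. The Mueller glia and astrocyte list of 12 genes had a median change of -1.93 and summed levels of 2316 to 3805 FPKM at day 0 and 569 to 6529.5 at day 4, with up to 6 genes at 0. Its median change was -3.57 in batch 1 and -0.18 in batch 2, against -2.48 and -1.18 for the bipolar list. With the mean level of both lists as a covariate, 0 of the 78 genes were called at day 4 by limma. At an unadjusted p under 0.05 there were 23, and the share over all genes was not computed for this fit. The fitted changes of the 78 had a median of 1.23 in it. Both lists had lower medians at day 4, so this fit cannot tell them apart from the day. For Mueller glia and astrocytes the lower median came mainly from batch 1. Of the 14 genes 10 had a larger fitted change with the covariate and 4 a smaller one, while the SE was larger for all 14 (median 0.67 against 0.41). Mrpl18, for example, went from 2.09 ± 0.37 to 2.44 ± 0.60 and Mrpl14 from 1.37 ± 0.35 to 0.80 ± 0.55. Genes of the cell cycle, a list of 20, rose in 11 cases at day 4 (median change 3.19). Their summed level was 52.6 to 95 FPKM at day 0 and 323 to 1119 at day 4. Whether these shifts take part in the change of the 78 genes was not tested.

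Day 0 replicate 1 stood apart from the other libraries, with the highest summed level of the rod list (10296 FPKM), the endothelial and pericyte list (437 FPKM) and the lowest of the microglial list (6316 FPKM). All 78 genes had at least 1 FPKM in it. Without it 11 genes were called at day 4, 8 of them among the 14.

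**Figure D3:**
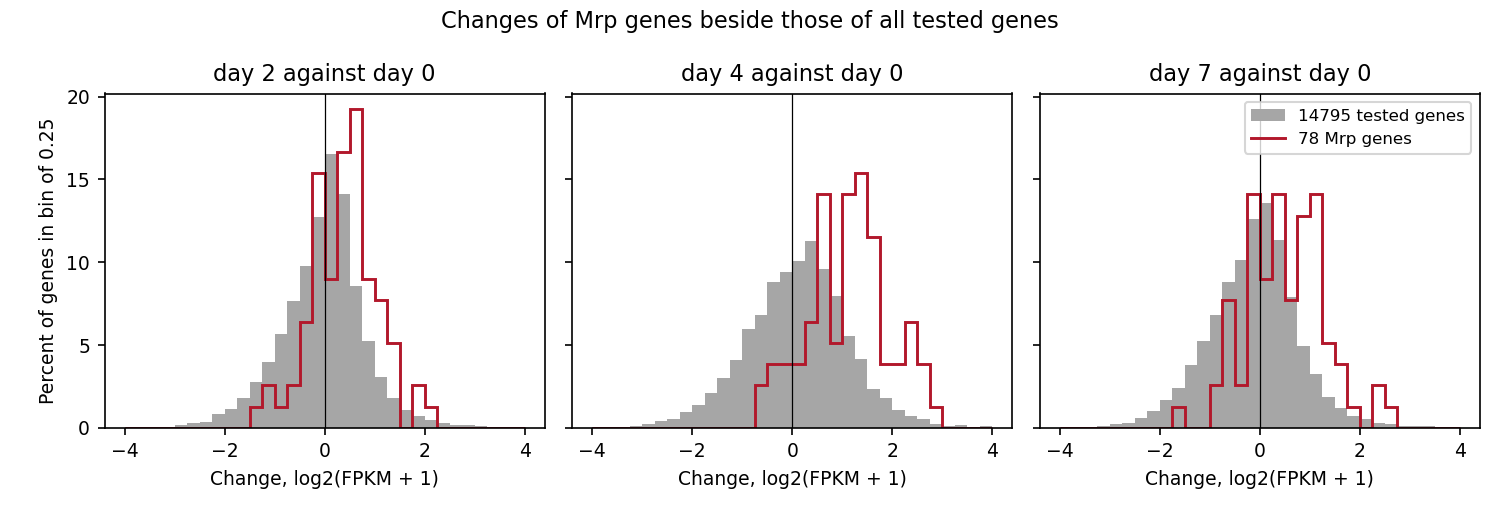
Distribution of changes in log2(FPKM + 1) (horizontal axis) at days 2, 4 and 7 against day 0, as percent of genes in bins of 0.25 (vertical axis), for all 14795 tested genes (grey) and the 78 Mrp genes (red line). Genes beyond the axis limits are not drawn. The red line lies to the right of the grey in each panel, most at day 4 (medians of 1.07 and 0.16), and at days 2 and 7 no Mrp gene was called.

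Mrpl18, a protein of the central protuberance of the large subunit, which contacts the head of the small subunit, had the smallest adjusted p. Its levels were 35.9, 13.5, 17.0 and 32.1 FPKM at day 0, 52.9, 79.4, 56.9 and 39.6 at day 2, 82.9, 126, 81.5 and 119 at day 4, and 100, 48.3, 72.2 and 38.3 at day 7. All libraries after crush lay above all day 0 libraries, and those of day 4 above those of day 2. The change at day 4 was 2.09 ± 0.37 (log2, SE; limma adjusted p = 0.00654), 2.15 in batch 1 and 2.03 in batch 2. At day 2 it was 1.25 ± 0.37 (adjusted p = 0.213) and at day 7 1.37 ± 0.37 (adjusted p = 0.15), neither past the threshold. The gene lies at chr17:12911349-12916345 on the minus strand (GRCm38), and 10.1% of its exon bases overlap Tcp1 on the other strand. With Nextera XT the strand of the RNA is lost, so fragments in that overlap could belong to either gene.

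Mrpl12 forms, with Mrpl10 and Mrpl11, the flexible stalk where translation factors dock, and is also known to bind the mitochondrial RNA polymerase. Its levels were 15.2, 32.9, 16.2 and 24.8 FPKM at day 0, 35.8, 21.3, 50.4 and 24.6 at day 2, 78.4, 85.7, 169 and 109 at day 4, and 39.1, 28.5, 47.7 and 11 at day 7. Day 4 stood above every other library of the series. The change was 2.26 ± 0.44 at day 4 against day 0 (log2, SE; limma adjusted p = 0.0106). From day 4 to day 7 it fell by 1.88 ± 0.44 (adjusted p = 0.0472), with all 4 day 7 libraries below all of day 4. Its gene, at chr11:120484613-120489065 on the plus strand, shares no exon bases with another gene, and its promoter holds the NRF1 match in capitals.

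Mrpl54, placed at the stalk base, had 41.2, 43.5, 27.9 and 15.5 FPKM at day 0 and 53.6, 86.6, 98.1 and 83.8 at day 4, a change of 1.37 ± 0.37 (adjusted p = 0.0462) that was lost without most single libraries (12 of 16). Mrpl10 had 39.5, 35.2, 20.1 and 43.7 FPKM at day 0 and 26.9, 42.2, 52.0 and 16.5 at day 4, overlapping ranges with a change of -0.08 ± 0.47 (adjusted p = 0.943). Over the 5 stalk genes 2 were called and the median change was 1.37.

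Mrps28, a small subunit protein, had 25.6, 19.97, 6.11 and 15.4 FPKM at day 0, 15.7, 35.5, 29.5 and 43.7 at day 2, 62.0, 72.1, 96.6 and 107 at day 4, and 53.1, 26.0, 94.5 and 111 at day 7. Days 4 and 7 lay above day 0 throughout, and day 2 overlapped with it. Its change at day 4 was 2.39 ± 0.48 (log2, SE; limma adjusted p = 0.0109), 1.52 in batch 1 and 3.25 in batch 2. At day 7 it was 1.98 ± 0.48 (adjusted p = 0.115). The gene lies at chr3:8802146-8923918 on the minus strand. An F test over the 4 days called 3 of the 78 genes, Mrpl18, Mrpl12 and Mrps28 (adjusted p = 0.0278, 0.0337 and 0.0337), which is 3.85% against 2.89% of all genes.

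The 3 proteins named S18, relatives of a single bacterial protein, were all among the 14. Mrps18c had 18.4, 18.3, 26.0 and 4.58 FPKM at day 0 and 78.2, 68.1, 72.5 and 40.9 at day 4, a change of 2.06 ± 0.51 (limma adjusted p = 0.0316). Mrps18b had 3.78, 4.83, 0.0185 and 4.42 FPKM at day 0 and 12.4, 18.7, 25.5 and 15.8 at day 4, a change of 2.4 ± 0.58 (adjusted p = 0.028). Mrps18a, which sits in the large subunit despite its name, had 6.10, 11.6, 5.96 and 6.64 FPKM at day 0 and 16.7, 20.6, 23.7 and 26.3 at day 4, a change of 1.44 ± 0.31 (adjusted p = 0.0156). In each of the 3 the groups did not overlap. Mrps18b and Mrps18c share 30.5% and 23.2% of their exon bases with other gene models, and Mrps18b also has a near-identical pseudogene, Gm13552, so their fragments may be split. Mrps18a shares none.

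The remaining calls were large subunit proteins. Mrpl15, with 4.58, 5.45, 0.314 and 0.531 FPKM at day 0 and 12.5, 10.1, 33.1 and 14 at day 4, had the largest fitted change of the 14, 2.51 ± 0.64 (limma adjusted p = 0.0356), 1.03 in batch 1 and 3.99 in batch 2. Mrpl36, a small zinc-binding protein in bacteria, had 19.1, 40.4, 25.9 and 17.8 FPKM at day 0 and 75.9, 98.0, 138 and 68.5 at day 4 (change 1.86 ± 0.42, adjusted p = 0.0206). It was also above all day 0 libraries at day 7, with 48.4, 60.1, 50.7 and 57.9 FPKM, a change of 1.11 ± 0.42 that was not past the threshold (adjusted p = 0.302). Mrpl40, at the central protuberance, went from 18.6, 4.41, 13.6 and 21.6 FPKM at day 0 to 51.6, 29.3, 41.2 and 30.1 at day 2 and 53.5, 24.5, 39.2 and 78.4 at day 4. Its change was 1.47 ± 0.42 at day 2 (adjusted p = 0.197) and 1.74 ± 0.42 at day 4 (adjusted p = 0.028).

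Mrpl20, Mrpl33, Mrpl14, Mrpl54 and Mrpl42 completed the 14, with changes between 1.27 and 1.69. Mrpl33 varied least of these 5 within day 4, with 12.3, 11, 11.9 and 8.97 FPKM against 4.39, 4.44, 3.48 and 1.88 at day 0. Of the 14 genes, 4 share at least 10% of their exon bases with another gene, 2 have a near-identical pseudogene copy (at least 95% identity over 200 bases) and 9 have neither. Across all 78, 18 have such a copy, and 61 share under 10% of exon bases, of which 10 were called with a median change of 1.07.

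**Figure D4:**
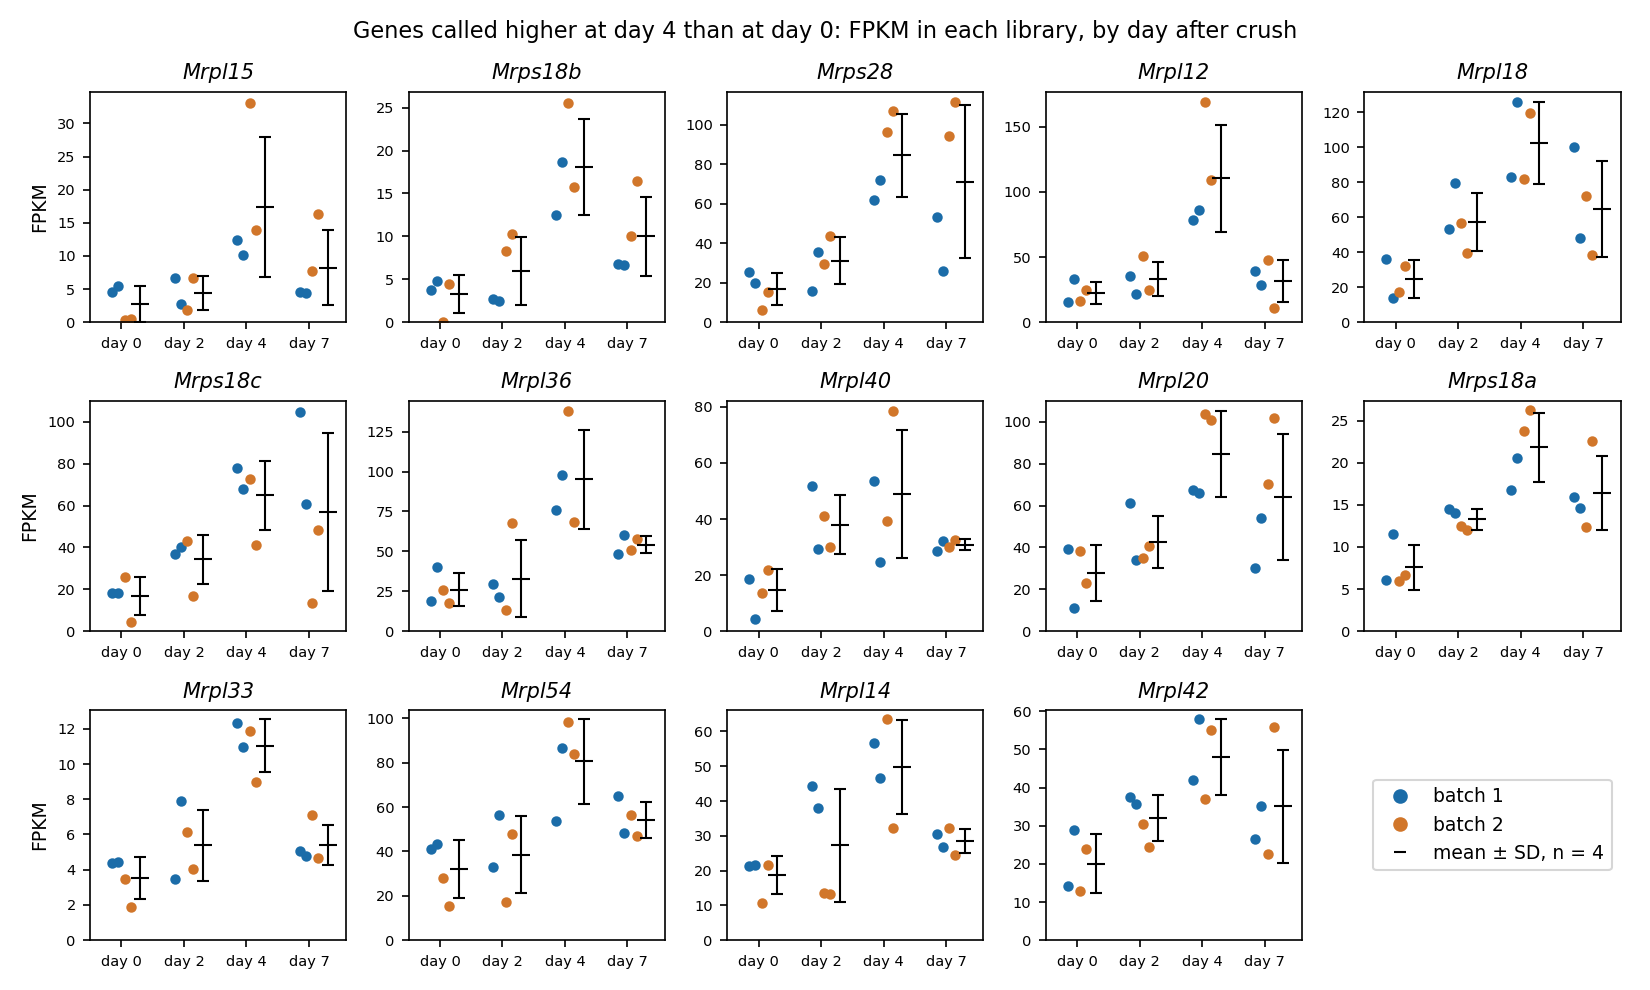
FPKM (vertical axes, each from 0) of the 14 genes called higher at day 4 than at day 0, by day after crush (horizontal axes). Points are libraries, blue for batch 1 and orange for batch 2, and bars show the mean ± SD of 4 libraries. In each panel the 4 day 4 points lie above the 4 day 0 points, and Mrpl12 is the gene called lower again at day 7 (a fall of 1.88 on the log2 scale).

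Of 51 proteins of the large subunit 11 were called at day 4 and of 26 of the small subunit 3, with medians of 1.07 and 1.09. Proteins conserved in bacteria (45 genes, 8 called) and those added in mitochondria (30 genes, 4 called) both had a median of 1.07. Mrps18a and Mrps28, the 2 genes left unclassified by origin, were both called, with a median of 1.91. Mrps18a is a relative of a bacterial protein, as said above, but was not counted in the bacterial class. The counts by origin depend on where these 2 genes are placed. The central protuberance (8 genes, 2 called) had a median of 1.6 and the rim of the exit tunnel (8 genes, 0 called) one of 1.06. These medians were not tested against each other. Among genes with a promoter window, 9 of the 11 called at day 4 held an NRF1, ETS or YY1 match (81.8%), against 35 of 58 others (60.3%), also without a test.

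Some genes had large fitted changes without a call, because their libraries scattered. Mrps27, a small subunit protein that binds RNA, had the largest of all 78, 2.94 ± 0.85 (limma adjusted p = 0.0588), from 3.39, 4.09, 0 and 0 FPKM at day 0 to 7.60, 14.9, 44.4 and 11.5 at day 4. Mrpl38 had 17.9, 0, 0.121 and 7.15 FPKM at day 0 and 18.6, 22.5, 25.7 and 16.9 at day 4 (2.58 ± 0.87, adjusted p = 0.0992), and Mrpl37 had 8.46, 0.0441, 0.00866 and 6.73 at day 0 and 11.9, 21.0, 16.5 and 17.2 at day 4 (2.55 ± 0.81, adjusted p = 0.0828). In these genes the day 0 libraries split into detected and nearly undetected ones. The fitted change of a gene with values at 0 depends on the added 1 FPKM.

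At the other end stood genes whose fitted change was below 0. Mrpl49 had 73.7, 44.2, 44.5 and 28.5 FPKM at day 0 and 42.1, 13.7, 39.4 and 29.1 at day 4 (-0.64 ± 0.49, limma adjusted p = 0.499). Mrps34 stayed between 4.73 and 20.9 FPKM in all 16 libraries (-0.13 ± 0.36 at day 4, adjusted p = 0.872), with exons that overlap another gene over most of their length. Mrpl44, an RNase III relative at the exit tunnel rim, was 15.0, 14.4 and 14.9 FPKM in 3 day 4 libraries and 0 in the fourth (-0.61 ± 1.10, adjusted p = 0.798). Mrpl1 and Mrpl50 were also below 0, at -0.43 ± 0.88 and -0.42 ± 1.01 (adjusted p = 0.825 and 0.85). None of these 5 differences exceeded the spread between libraries.

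Of the 4 genes with the highest mean levels, Mrpl18 was called and the others were not. Mrps21 had 42.7, 48.6, 49.6 and 72.6 FPKM at day 0 and 90.2, 97.8, 147 and 66.9 at day 4, a change of 0.87 ± 0.27 that missed the threshold (limma adjusted p = 0.0739). Mrpl28 (0.64 ± 0.31, adjusted p = 0.26) and Mrpl34 (0.43 ± 0.51, adjusted p = 0.679) were further from it. Mrps30, which like Mrps18a sits in the large subunit, had a change of 1.68 ± 0.62 (adjusted p = 0.129). Mrps36, now known as a component of the 2-oxoglutarate dehydrogenase complex and not of the ribosome, had 17.1, 18.7, 11.4 and 12 FPKM at day 0 and 25.9, 31.2, 28.2 and 41.2 at day 4 (1.05 ± 0.35, adjusted p = 0.0921). Its near-identical pseudogenes Mrps36-ps1 and Mrps36-ps2 had means of 44.2 and 27.9 FPKM, and that of Mrps21, Gm6181, had 36.4 FPKM. Fragments of Mrps36 and Mrps21 may therefore be split.

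**Figure D5:**
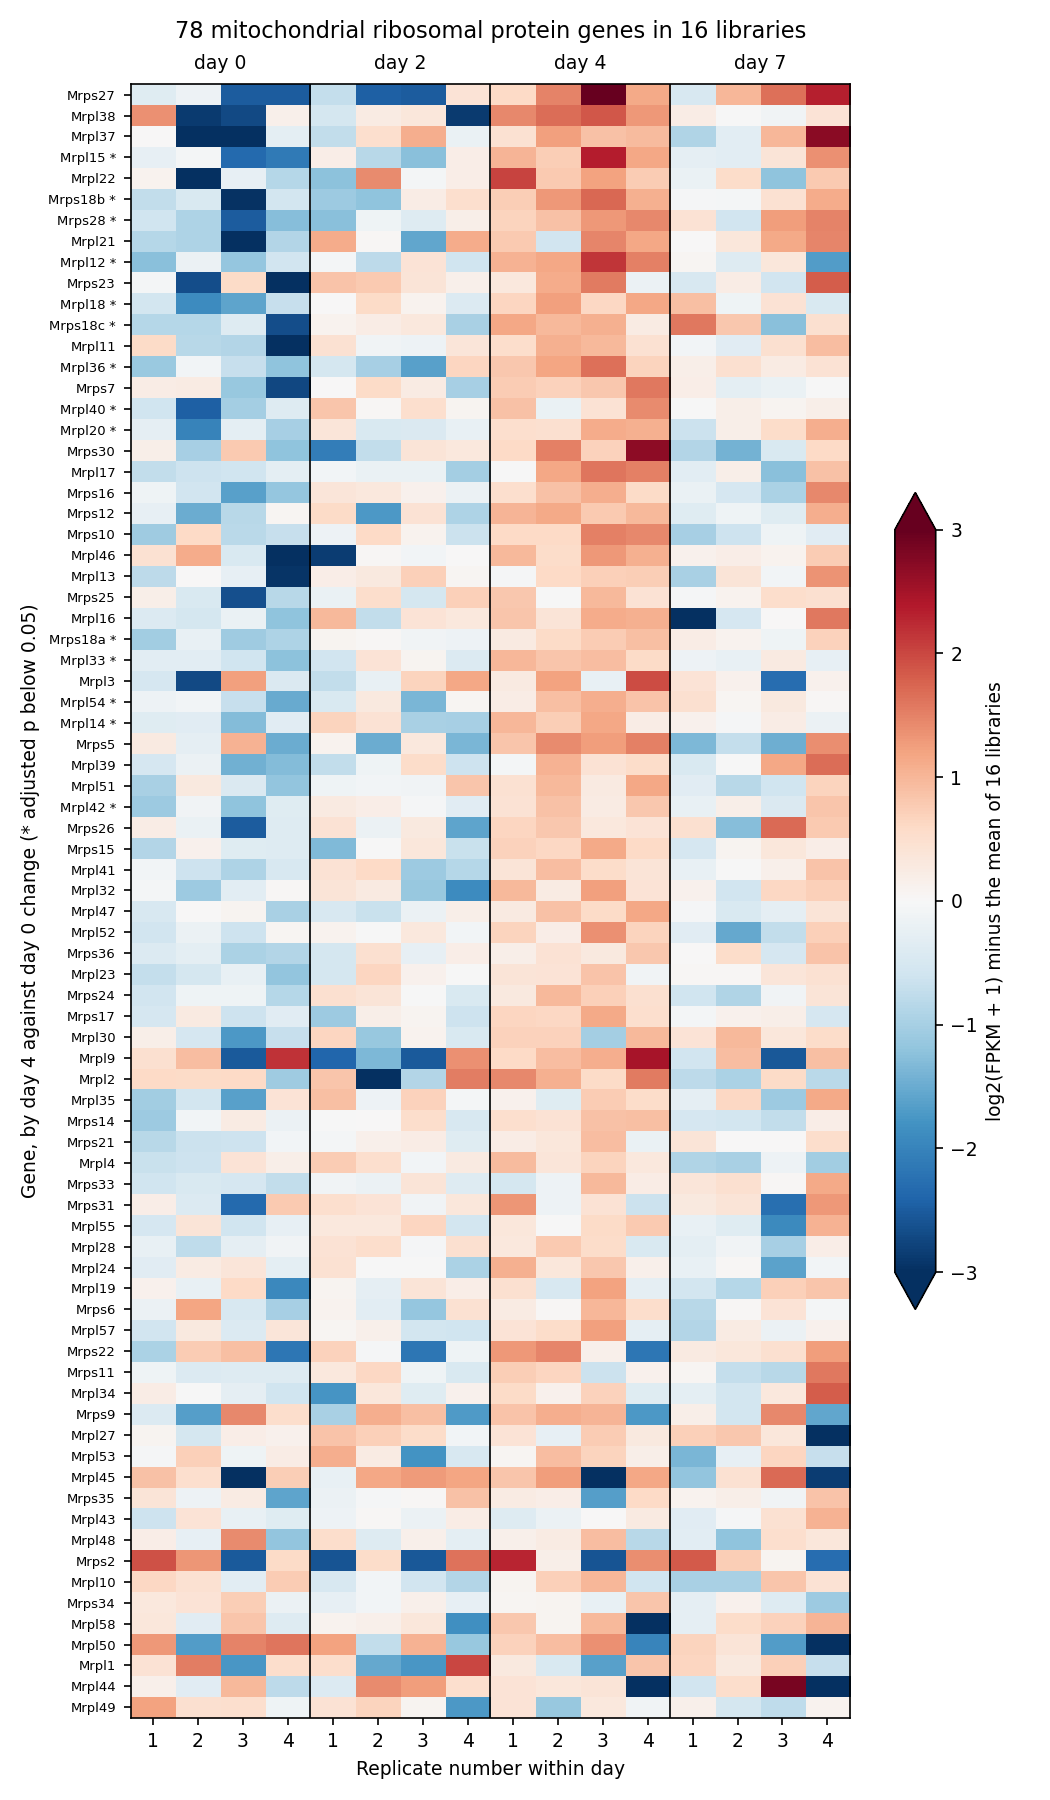
Level of each of the 78 Mrp genes (rows, ordered by the day 4 against day 0 change, asterisks for adjusted p under 0.05) in 16 libraries (columns, by day and replicate number), as log2(FPKM + 1) minus the mean of the gene over the libraries. Most rows are blue at day 0 and red at day 4, single dark blue cells are libraries in which a gene was near 0, and 58 of the 78 genes had their highest day mean at day 4.

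At day 2 none of the 78 genes was called in either direction by limma, against 0.25% of all genes called higher and 0.0608% lower. At an unadjusted p under 0.05 there were 9 of the 78, all higher, against 5.3% of all genes higher. The median change of the 78 was 0.46, with 0.04 for all genes, and 55 were positive. For 6 genes, Mrpl13, Mrpl18, Mrpl28, Mrpl40, Mrps18a and Mrps33, all day 2 libraries lay above all of day 0, which is 7.69% against 3.37% of all genes. Mrps33 has a near-identical pseudogene, Gm5776, with a mean of 146 FPKM, so its fragments may be split. Mrps18a had 14.5, 14, 12.5 and 12 FPKM at day 2, a change of 0.78 ± 0.31 (adjusted p = 0.404). Mrps23, a small subunit protein, had the largest fitted change, 2.04 ± 0.84 (adjusted p = 0.426). Mrpl9 had the lowest, -1.48 ± 1.09 (adjusted p = 0.719), with day 2 values of 0.136, 1.33, 0.0259 and 14.1 FPKM.

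From day 2 to day 4, the comparison in which the animals were of 1 age, none of the 78 genes was called by limma, against 0.433% of all genes called higher and 0.0203% called lower. At an unadjusted p under 0.05 there were 24 of the 78, all higher, against 8.68% of all genes higher. The median change of the 78 was 0.67, with 0.16 for all genes, and 69 were positive. For 22 genes all day 4 libraries lay above all of day 2, which is 28.2% against 7.83% of all genes. Mrpl36 (1.70 ± 0.42, adjusted p = 0.0978) and Mrpl12 (1.72 ± 0.44, adjusted p = 0.108) came closest to the threshold. Both day 2 libraries of batch 2 carry another title prefix than all others, and its meaning is not stated in the labels. Days 2 and 4 also share no full title code, so in their direct comparison the code cannot be told apart from the day. With the full code as batch the median change of the 78 was 0.23.

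At day 7 none was called against day 0 by limma, against 0.27% of all genes called higher and 0.135% called lower. At an unadjusted p under 0.05 there were 22 of the 78, all higher, against 5.49% of all genes higher. The median change of the 78 was 0.48, with -0.07 for all genes, and 56 were positive, with medians of 0.13 in batch 1 and 0.82 in batch 2. Days 0 and 7, like days 2 and 4, share no full title code. In the direct comparison of days 0 and 7 the code cannot be told apart from the day. For 14 genes, Mrpl18, Mrps28, Mrpl36, Mrpl40 and Mrps18a among them, all day 7 libraries lay above all of day 0, which is 17.9% against 2.51% of all genes. Mrps27 again had the largest fitted change, 2.51 ± 0.85 (adjusted p = 0.248). Replicate 4 had the highest sum of day 7, and Mrpl34, Mrpl37 and Mrps23 had their highest value of all 16 libraries in it, at 198, 60.5 and 49.8 FPKM.

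Between days 4 and 7, Mrpl12 was the only gene of the 78 called lower, 1.28% against 1.5% of all genes, and the call was lost without any of 14 of the 16 single libraries. The median change was -0.54 and that of all genes -0.25, and 67 of the 78 were negative. For 13 genes all day 7 libraries lay below all of day 4, which is 16.7% against 8.66% of all genes. After rescaling by median-of-ratios factors the median of the 78 was -0.11, 50 were negative and the median of all genes was 0.05. Mrps30 (-1.91 ± 0.62, adjusted p = 0.138) had the largest fitted fall.

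Among the 5 ribosomal proteins without an Mrp symbol, Chchd1, a small subunit protein, rose at day 4. It had 20.1, 45.6, 31.7 and 12.8 FPKM at day 0 and 83.1, 75.3, 91.5 and 73.8 at day 4, a change of 1.66 ± 0.45 (limma adjusted p = 0.0462) that was not refitted under other settings. Dap3, a GTP-binding protein of the small subunit, had a change of 0.77 ± 0.53 (adjusted p = 0.441), Ptcd3 0.68 ± 0.82 (adjusted p = 0.687), Gadd45gip1 0.64 ± 0.36 (adjusted p = 0.338) and Aurkaip1 0.52 ± 0.39 (adjusted p = 0.489).

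Genes that build and serve these ribosomes were followed in 3 lists. Of 24 assembly factors and enzymes that modify the ribosomal RNA, limma called none against day 0 at any day, with medians of -0.12, 0.23 and -0.48 at days 2, 4 and 7. Of 12 factors of mitochondrial translation, none was called against day 0 (medians of 0.39, 0.93 and 0.14). Of 13 genes for transcription of mitochondrial DNA and care of its RNA, none was called either (medians of 0.07, 0.46 and -0.29). At an unadjusted p under 0.05 there were, in these 3 lists, 2, 5 and 1 higher genes and 1, 0 and 0 lower ones at day 4, and at most 1 gene in any list at day 2 or day 7. Of all genes, 15.1% were higher at day 4 by that threshold. Between days 4 and 7, Gfm1 and Tufm, both elongation factors of mitochondrial translation that were picked out here after their values were seen, fell by 2.65 ± 0.57 and 2.09 ± 0.46 (adjusted p = 0.0328 and 0.0368). Neither fall was refitted under other settings. Gfm1 had 21.4, 17.3, 13.1 and 12.3 FPKM at day 4 and 5.69, 1.6, 0 and 1.81 at day 7, and Tufm 41.9, 29.0, 22.8 and 72.3 at day 4 and 12.6, 14.8, 2.73 and 7.57 at day 7. That the ribosomal protein genes differ from these lists was not tested.

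The 78 genes did not all follow the same course over the libraries. The correlation of each gene with the mean of the other 77, on log2(FPKM + 1) over 16 libraries that share the day differences and the scaling, had a median Pearson r of 0.57. It was above 0.5 for 47 genes, highest for Mrpl15 (0.88), Mrpl33 (0.87) and Mrps18a (0.85), and below 0 for 10, lowest for Mrpl44 (-0.27) and Mrpl50 (-0.24). These are descriptions and carry no test. The day mean was highest at day 4 for 58 genes, at day 7 for 11, at day 0 for 5 and at day 2 for 4.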

How the data were processed

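RNA was measured in 16 libraries, grouped and numbered by their titles. The deposited table holds FPKM that the authors made from reads mapped with STAR 2.7.2b and counted with featureCounts 1.6.1 (genome GRCm38.p6, also called mm10), as the submitters' processing notes list. No label states how reads shared by genes or copies were counted. The steps of the values gave totals of 8647276 to 15708302 reads per library, many genes having fractional counts, so FPKM were tested and not counts. Intervals from these totals would cover counting error only, and none are given. Per the labels' protocols, cDNA was amplified and tagged with Nextera XT, which does not mark strand.

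The 14795 genes that reached 1 FPKM in 4 or more libraries were fitted with limma 3.58.1 in R 4.3.3 (eBayes with trend) on log2(FPKM + 1), a pseudocount of 1, which understates changes of low genes. All 16 libraries entered, with a mean per day and a batch term. The batch is the first 4 digits of a code in the titles (replicates 1 and 2 against 3 and 4), a reading the labels do not state. Tests were two-sided, adjusted over all tested genes with the Benjamini-Hochberg method at 0.05, for 5 comparisons, an F test over the 4 days and a test of day by batch. The code was tested on simulated data. As nothing says that replicates are separate animals, p-values measure the spread between these libraries, which may be technical.

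The members, the lists of other genes, the classes of proteins and the motifs were chosen with earlier results of these data known. Named are the genes called in any comparison, the 4 highest and 4 lowest changes in each comparison against day 0, the 4 highest and 4 lowest means, Mrps18a, Mrps30, Mrps36 and the 5 subunits without an Mrp symbol. Other genes named, for non-overlap, motif or neighbouring start, and Gfm1 and Tufm, were picked after their values were seen. Alternatives tried were another pseudocount, filter, scaling, batch term or variance trend, a replicate block, each batch alone, a cell-type covariate and leaving out libraries.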

Additional observations from a re-analysis of the deposited data

Results flagged for a closer look

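In each group of 4 libraries, the summed level of the 78 genes, their median, the number of them at 1 FPKM or more and each of 38 named genes were searched for a library whose gap to the nearest other as a share of the range of the group exceeded the critical value of Dixon. Of 164 such groups 13 were marked. Chance marks about 1 in 20 groups. None was a sum, a median or a number of detected genes.

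At day 0, replicate 3 was low for Mrpl14 at 10.6 FPKM (others 21.3 to 21.5) and for Mrpl21 at 0 (others 6.36 to 6.76). Replicate 4 was low for Mrpl2 at 13.7 FPKM (others 45.2 to 46.0). Replicate 2 was low for Mrpl27 at 28.8 FPKM (others 44.4 to 47.6) and high for Mrps18a at 11.6 FPKM (others 5.96 to 6.64). Mrpl14 and Mrps18a are both among the genes called at day 4, and the call of Mrpl14 was lost without day 0 replicate 3, as it was without 6 other single libraries, while that of Mrps18a held without day 0 replicate 2.

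At day 2, replicate 4 was high for Mrpl9 at 14.1 FPKM (others 0.0259 to 1.33) and for Mrps35 at 4.81 FPKM (others 1.78 to 2.27). At day 4, replicate 3 was high for Mrpl15 at 33.1 FPKM (others 10.1 to 14), and the call of Mrpl15 was lost without it, as it was without each other day 4 library and without day 0 replicate 3 or 4. Replicate 4 was listed at 0 for Mrpl44 (others 14.4 to 15.0) and was high for Mrpl9 at 31.5 FPKM (others 7.85 to 11.6). At day 7, replicate 3 was high for Mrpl2 at 44.9 FPKM (others 15.0 to 17.0) and for Mrpl33 at 7.1 FPKM (others 4.68 to 5.05), and replicate 4 was high for Mrps5 at 6.39 FPKM (others 0.0215 to 0.707).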

How the results depend on the processing

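The number of the 78 genes called at day 4, 14 as reported, was 3 with no filter on low values, 1 with median-of-ratios factors, 1 with the full title code as batch, 1 and 0 in batch 1 and batch 2 alone and 0 with the bipolar and Mueller glia covariate, where the median change of the 78 was 1.23 and the SE of all 14 genes was larger. It was 4 to 16 with 1 library left out. Over the same alternatives the calls among all genes also moved, from 790 at day 4 to between 0 and 955. With 1 library left out they were 267 to 955. Calls among all genes are not given here fit by fit. Whether a loss was particular to the 78 genes cannot be read from these counts. The single call of day 7 against day 4 became 0 under the other pseudocount, no filter, median-of-ratios factors, the full title code, the replicate block, batch 1 alone, batch 2 alone, without the libraries with prefix F, the covariate and no trend. It became 2 with the filter of 8 libraries, and 0 to 2 with 1 library left out. The 3 calls over 4 days became 0 with no filter, median-of-ratios factors, the full title code, batch 1 alone, batch 2 alone, the covariate and no trend, 1 with the replicate block or without the libraries with prefix F, and 0 to 4 with 1 library left out. Calls of day 4 against day 2 were 0 to 1 with 1 library left out. The median change of the 78 at day 4 was 0.63 with median-of-ratios factors. That of day 4 against day 2 was 0.38 with them and 0.23 with the full title code, that of day 7 against day 4 was -0.11 with median-of-ratios factors, and that of day 7 against day 0 was 0.13 in batch 1 alone and 0.82 in batch 2 alone. With 1 library left out these medians were 0.36 to 0.54 at day 2, 1.07 to 1.22 at day 4, 0.36 to 0.63 at day 7, 0.60 to 0.72 for day 4 against day 2 and -0.75 to -0.49 for day 7 against day 4. The median of all genes turned to -0.16 at day 4 with median-of-ratios factors, and for day 7 against day 4 to 0.053 with them and 0.0091 with no filter. Causes were not tested. No named gene that was called changed sign. Same-numbered libraries correlated with median r of 0.027 to 0.059 per number, and 5 of 16 were closest to their own number, so the numbers do not pair them. With the replicate block in place of the batch 11 genes were called at day 4, 10 of them among the 14.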
